A study of Homo sapiens with 8 samples.

Results

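Ribosomal protein genes encode the protein subunits of the cytosolic ribosome, RPL genes those of the large (60S) subunit and RPS genes those of the small (40S) subunit. Members were chosen by gene symbol alone, as all rows named RPL or RPS with a number, together with RPLP0, RPLP1, RPLP2 and RPSA, and without RPS27L. This rule was met by 83 of 26364 genes in the counts, and 78 of the members had enough counts to be tested among 14201 genes. Their RNA was counted in LN229 cells, a human glioblastoma line, of which 2 stable clones were sequenced. Clone Surv-GFP (D6) carries Survivin, the product of BIRC5, fused to eGFP with a working nuclear export signal and is mostly cytoplasmic. In clone SurvNESmut-GFP (L2) this signal is destroyed by the substitutions L96A and L98A, and the fusion protein stays mostly in the nucleus. Cells of each clone received 50 µM temozolomide (TMZ), an alkylating drug used against glioblastoma, for 48 h or no drug, with 2 libraries per group lettered a and b. The vehicle of the untreated cells is not stated. Both clones carry a selected plasmid and each form of Survivin is represented by 1 clone, so the Survivin form and the identity of the clone cannot be told apart. The study's legends describe independent biological replicates that were each run in technical duplicate, without saying which of these the letters a and b mark, and all p-values measure the spread between letters.

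Most ribosomal proteins are present as a single copy in each ribosome, with RPLP1 and RPLP2 of the stalk as exceptions, and surplus protein is degraded. Most of their mRNAs begin with a run of pyrimidines, the 5′ TOP motif, through which mTOR signalling and LARP1 set their translation. Several have roles outside the ribosome. RPL5 and RPL11, when free, bind MDM2 together with 5S rRNA and thereby stabilise p53, and some family members have a paralogue, such as RPL22L1 for RPL22, which can take the place of the parent protein.

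The gene counts summed to 15826923 to 18861603 reads in each library. BIRC5 was measured at 1152 and 1113 CPM (counts per 1000000 counts of the TMM-scaled library) in untreated Surv-GFP and at 1938 and 2029 CPM with TMZ. In SurvNESmut-GFP it was at 407 and 414 CPM untreated and at 262 and 253 CPM with TMZ. Reads of the plasmid and of the chromosomal gene cannot be told apart in these counts, so BIRC5 is no check of the NES form. Of 8 glioblastoma line markers VIM, CD44 and NES lay at 524 CPM or more in every library, while GFAP did not exceed 0.921 CPM. Their sum was 5972 to 6033 CPM in untreated Surv-GFP and 3871 to 3957 CPM with TMZ, and 4662 to 4858 CPM and 4131 to 4269 CPM in SurvNESmut-GFP. Of the 7 tested 5 were lower and 1 higher with TMZ in Surv-GFP, and 4 lower and 2 higher in SurvNESmut-GFP. Between the untreated clones 4 of the 7 were lower and 2 higher in SurvNESmut-GFP. S100B, OLIG2 and SOX2 were among the lower ones, with log2 differences of -4.26, -2.29 and -1.40. Over all libraries S100B ranged from 14.3 to 798 CPM. Markers of other cells summed over 10 genes to 14.4 to 15.6 CPM and 20.1 to 21.4 CPM in Surv-GFP, and to 25.6 to 26.2 CPM and 28.3 to 31.5 CPM in SurvNESmut-GFP, without and with TMZ. Of the 5 tested CD68 alone was higher with TMZ, in both clones. PTPRC, RBFOX3, EPCAM and CDH1 had 4 counts or fewer in every library. Between the untreated clones 3 of the 5 were higher and 1 lower in SurvNESmut-GFP. The higher ones included MBP, with log2 differences of 9.89 untreated and 9.84 with TMZ. MBP had 0 to 131 counts per library, up to 7.10 CPM, and counts of 0 leave the size of its difference uncertain. The part of these marker changes and clone differences in the results of the members was not tested. The 2 libraries of SurvNESmut-GFP with TMZ differed most from each other, with a chi-square of 5.74 per gene, against 2.66 or less in the other pairs.

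Most members were abundant in all groups. The mean level over the 8 libraries had a median of 392 CPM among the 78 tested members, against 30.6 CPM among all tested genes. Per kilobase of coding sequence, a rough measure since untranslated parts are left out, the median of the members was 796 CPM. RPS21, RPL37A and RPLP1 were the highest on this scale, at 2683, 2324 and 2151 CPM per kilobase. RPL17, RPS10 and RPL36A were the lowest at 8.26, 17 and 19.3 CPM per kilobase, with 51 to 178 counts per library. The table also holds a read-through row for each of these 3 genes (RPL17-C18orf32, RPS10-NUDT3, RPL36A-HNRNPH2), and all 3 of these rows are listed at 0 in every library. Whether reads shared with these rows were lost to the 3 genes was not tested. RPL21 had 0 counts in all 8 libraries, where a count of 0 allows up to 3 counts or 0.160 to 0.189 CPM by counting error. The tissue-restricted paralogues RPL3L, RPL10L and RPL39L had 0 to 4 counts per library and were not tested. Ribosomal protein pseudogenes, many of which are near copies of these genes, held 448 to 644 counts per library over 31 rows, or 0.0686% to 0.114% of the counts on the members. Of the 11 tested 4 were higher and 0 lower with TMZ in Surv-GFP, and 2 and 0 in SurvNESmut-GFP. The sources used here do not say how reads shared between a gene and its copies were counted, so values of members with close copies are uncertain to that extent.

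The run of pyrimidines at the start site is shown for the genes to which the results below return. Each stretch covers 15 bases before the annotated start and 15 bases from it, read 5′ to 3′ on the strand of the gene in GRCh38.p14 as RefSeq gives it. Capitals mark the longest run of C and T that reaches within 10 bases of the start.
RPS19, chr19:41860240-41860269, plus strand: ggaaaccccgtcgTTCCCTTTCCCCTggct
RPL13A, chr19:49487593-49487622, plus strand: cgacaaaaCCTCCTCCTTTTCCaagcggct
RPL22, chr1:6199581-6199610, minus strand: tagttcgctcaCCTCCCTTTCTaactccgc
RPL22L1, chr3:170870181-170870210, minus strand: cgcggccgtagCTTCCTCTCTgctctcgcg
RPL26, chr17:8383179-8383208, minus strand: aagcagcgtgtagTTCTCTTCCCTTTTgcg
RPL26L1, chr5:172958714-172958743, plus strand: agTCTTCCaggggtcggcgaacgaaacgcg
RPL26L1 has a run of only 6 bases upstream of its start, while its parent RPL26 has 14 bases, and RPL22L1 has 10 bases against 11 in RPL22. A run of 8 or more bases was found at the start of 55 of the 66 members with an entry (83.3%), with a median run of 11.5 bases. Among 27305 genes with an entry the share was 18.8%, with a median run of 5 bases. Such a run describes the letters of the start site and does not show that an mRNA is regulated through it.

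To ask how much of the transcriptome the members took up, their counts were summed. The 83 members held 3.59% and 3.48% of the counts in untreated Surv-GFP, and 3.66% and 3.69% with TMZ. In SurvNESmut-GFP they held 3.30% and 3.32% untreated and 3.31% and 3.42% with TMZ. All 4 Surv-GFP libraries thus lay above all 4 SurvNESmut-GFP libraries. Wilson 95% intervals around each share were narrow, for instance 3.47% to 3.49% in untreated library b of Surv-GFP, and cover counting error only. The mean rose by 0.137 percentage points with TMZ in Surv-GFP, where the groups did not overlap, and by 0.0549 points in SurvNESmut-GFP, where they did. SurvNESmut-GFP lay below Surv-GFP by a mean difference of -0.227 points untreated and of -0.309 points with TMZ. With 2 libraries against 2 the smallest p of a two-sided exact permutation test is 0.333, and this was the value in the 3 comparisons without overlap, against 0.667 in SurvNESmut-GFP. Taken against the TMM-scaled library size, the SurvNESmut-GFP change became -0.0282 points and the untreated clone difference -0.0937 points.

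**Figure D1:**
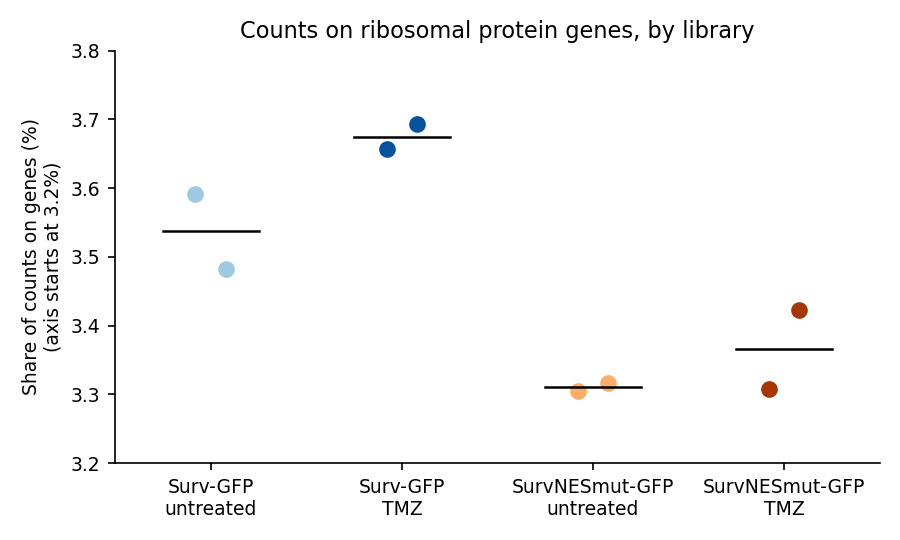
Share of all counts on genes that fell on the 83 ribosomal protein genes, in percent, for each library (points) with the group mean (line); the vertical axis starts at 3.2%. The 4 Surv-GFP libraries lie between 3.48% and 3.69% and the 4 SurvNESmut-GFP libraries between 3.30% and 3.42%.

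Upon TMZ in Surv-GFP cells, most members that changed rose, and by little. At a Benjamini-Hochberg adjusted p of 0.05 from edgeR's quasi-likelihood F test, 33 of 78 members were higher (42.3%) and 5 were lower (6.41%). Over all genes tested 30.1% were called higher and 28.9% lower. Members had a median log2 fold change of 0.09 and all genes one of 0.00, and the members ranged from -0.44 to 0.49. No member was both called and changed by 0.5 or more on the log2 scale, compared with 28.1% of all genes. Both subunits took part, with 21 of 48 large subunit genes and 12 of 30 small subunit genes higher, and 4 and 1 lower. Without library b of Surv-GFP with TMZ 9 members were higher and 6 lower, with a median of 0.042, so the excess of higher over lower calls rests largely on that library. Without the untreated library b 17 were higher and 5 lower, and with DESeq2 20 and 5.

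RPS19, a small subunit protein needed to mature 18S rRNA and mutated in Diamond-Blackfan anaemia, rose most clearly. It was at 554 and 520 CPM untreated and at 756 and 757 CPM with TMZ, a log2 fold change of 0.49 ± 0.05 (SE; adjusted p = 9.7e-08), or 1.41-fold. RPL36, of the large subunit, rose from 213 and 208 CPM to 265 and 281 CPM (0.37 ± 0.05, adjusted p = 1.7e-05). RPL9 rose from 296 and 282 CPM to 364 and 351 CPM (0.31 ± 0.05, adjusted p = 7.6e-05).

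The fall was led by RPS2, RPL13A and RPL7A. RPS2, a small subunit protein near the mRNA entry, was at 920 and 879 CPM untreated and at 696 and 742 CPM with TMZ (-0.32 ± 0.05, adjusted p = 2.6e-05). RPL13A, known also for a role in silencing inflammatory mRNAs, went from 247 and 237 CPM to 172 and 185 CPM (-0.44 ± 0.07, adjusted p = 3.2e-05). RPL7A went from 626 and 598 CPM to 521 and 524 CPM (-0.23 ± 0.05, adjusted p = 0.00042). RPL3, at the peptidyl transferase centre, and RPL22 completed the 5, with -0.17 and -0.23, but both lost the call when 1 library was left out (untreated library a or treated library a). Of these 5 genes RPS2, RPL13A, RPL7A and RPL3 carry small nucleolar RNA (snoRNA) genes in their introns, an observation made after the values were seen. Over all 27 tested members with a snoRNA in the gene 10 were higher and 4 lower, against 23 and 1 of the 51 members without. Among 168 other genes with a snoRNA 55 were higher and 55 lower.

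Upon TMZ in SurvNESmut-GFP cells the members moved in both directions in nearly equal numbers. In this clone 10 of 78 were higher (12.8%) and 9 lower (11.5%), against 18.6% and 19.1% of all genes, so both shares lay below the background. The median was -0.01 among the members and 0.00 among all genes, and it turned to 0.03 with scaling by library size alone and to 0.01 without library a of the treated group. With library size alone 15 members were higher and 4 lower. Without library b of the untreated group only 3 and 1 were called, and without library b of the treated group 15 were lower.

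RPL22L1, the paralogue of RPL22, rose from 37.3 and 40.7 CPM to 51.4 and 51.8 CPM (0.40 ± 0.06, adjusted p = 9.3e-05). RPS19 rose from 609 and 611 CPM to 708 and 720 CPM (0.23 ± 0.05, adjusted p = 0.00086). RPL23, another of the ribosomal proteins that bind MDM2, rose from 459 and 420 CPM to 494 and 514 CPM (0.20 ± 0.05, adjusted p = 0.0057), a call that was lost without the untreated library b. RPL13A fell again, from 175 and 183 CPM to 117 and 141 CPM (-0.47 ± 0.07, adjusted p = 5.5e-05), although its treated libraries differed widely from each other. RPS27A, which is made as a fusion with ubiquitin, fell from 406 and 478 CPM to 359 and 378 CPM (-0.26 ± 0.06, adjusted p = 0.0039). RPL10A fell from 330 and 337 CPM to 287 and 304 CPM (-0.17 ± 0.05, adjusted p = 0.009). The calls of both RPS27A and RPL10A were lost without the untreated library b, at -0.14 and -0.16.

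The clones share no library in these 2 comparisons. RPL12, RPL22L1, RPL27, RPL36, RPL38, RPS18, RPS19 and RPS27 were higher with TMZ in both clones, and RPL13A, RPL3 and RPL7A were lower in both. The share of all genes called in both clones was not counted. Some of these calls lay close to the threshold, such as RPL38 in Surv-GFP (adjusted p = 0.0495) and RPL7A in SurvNESmut-GFP (adjusted p = 0.0483). The RPL3 call in SurvNESmut-GFP (-0.14 ± 0.05, adjusted p = 0.037) was lost with library size alone and with a replicate block. It was also lost in a fit to the compared libraries alone, and without the treated library a the effect was -0.08. RPS27A was higher in Surv-GFP and lower in SurvNESmut-GFP. A further 24 members were higher in Surv-GFP and not called in SurvNESmut-GFP. Across the 78 members the effects of the clones correlated with Pearson's r = 0.42, which describes genes measured in the same libraries and is close to the 0.48 over all 14201 genes.

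**Figure D2:**
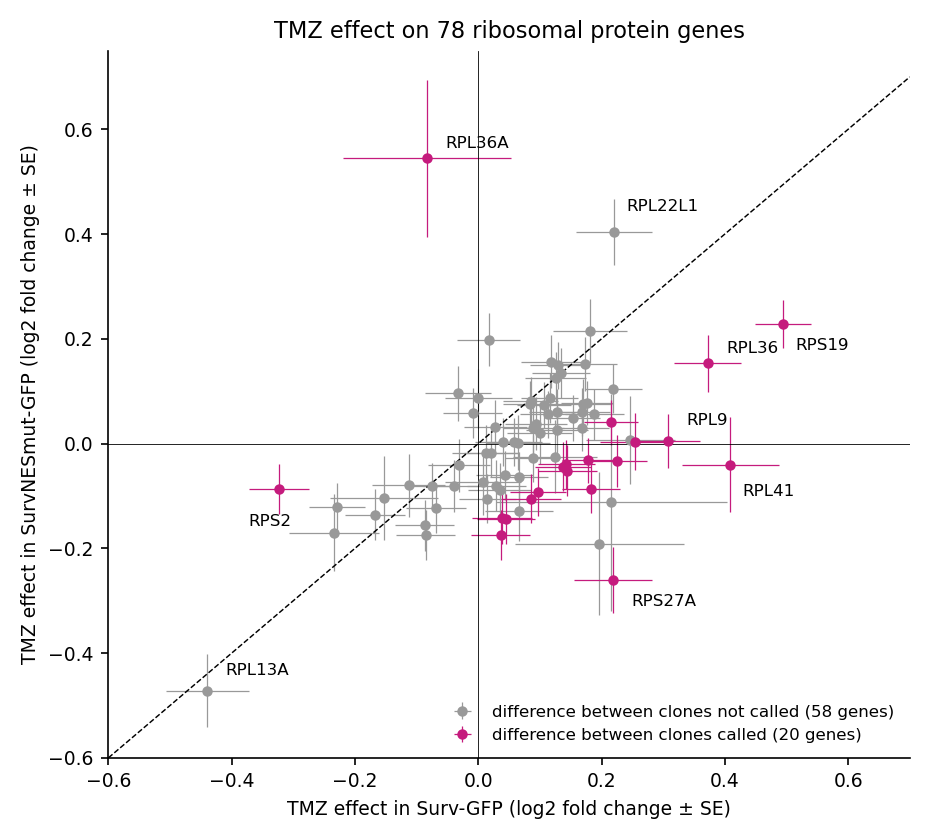
TMZ effect on each of the 78 tested ribosomal protein genes in Surv-GFP (horizontal) and SurvNESmut-GFP (vertical), as log2 fold change with SE bars; the dashed line marks equal effects. Of the 20 genes whose effects differed between clones (pink), 18 lie below the line and RPS2 and RPL36A above it.

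The difference between these effects was tested directly. TMZ moved 18 members less upward in SurvNESmut-GFP than in Surv-GFP (23.1%) and 2 members more (2.56%), against 20.2% and 16.6% of all genes. The median difference was -0.08 among the members and 0.00 among all genes. The lower count thus lay near the background, and the higher count lay below it. With scaling by library size alone the counts became 6 and 4, with DESeq2 9 and 1, and without library b of Surv-GFP with TMZ 6 members remained on the lower side.

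RPS27A had the largest difference among members called lower, with 293 and 292 CPM in untreated Surv-GFP, 348 and 333 CPM with TMZ, and the opposite movement in SurvNESmut-GFP given above (difference -0.48 ± 0.09, adjusted p = 0.00056). The effect on RPS19 was smaller in SurvNESmut-GFP by -0.27 ± 0.06 (adjusted p = 0.0038), although it rose in both clones. RPL9 stayed at 287 and 303 CPM untreated and 287 and 305 CPM with TMZ in SurvNESmut-GFP (difference -0.30 ± 0.07, adjusted p = 0.0039). These 3 differences were called under every alternative tried. RPS2 was at 766 and 778 CPM untreated and 746 and 708 CPM with TMZ in SurvNESmut-GFP, a smaller fall than in Surv-GFP (difference 0.24 ± 0.07, adjusted p = 0.013). RPL36A had the highest difference at 0.63 ± 0.20 (adjusted p = 0.022), from 82 and 83 counts untreated to 120 and 98 counts with TMZ in SurvNESmut-GFP against 124 and 128 to 124 and 111 counts in Surv-GFP. This call was lost with DESeq2 (adjusted p = 0.115) and when any 1 of 4 libraries was left out, and that of RPS2 when any 1 of 3 was. RPL41, which encodes the shortest ribosomal protein and is named here after its values were seen, was at 30.9 and 27.5 CPM in untreated Surv-GFP and at 40.5 and 37.1 CPM with TMZ. In SurvNESmut-GFP it was at 21.7 and 20.2 CPM untreated and at 20.2 and 20.6 CPM with TMZ (difference -0.45 ± 0.12, adjusted p = 0.0078).

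**Figure D3:**
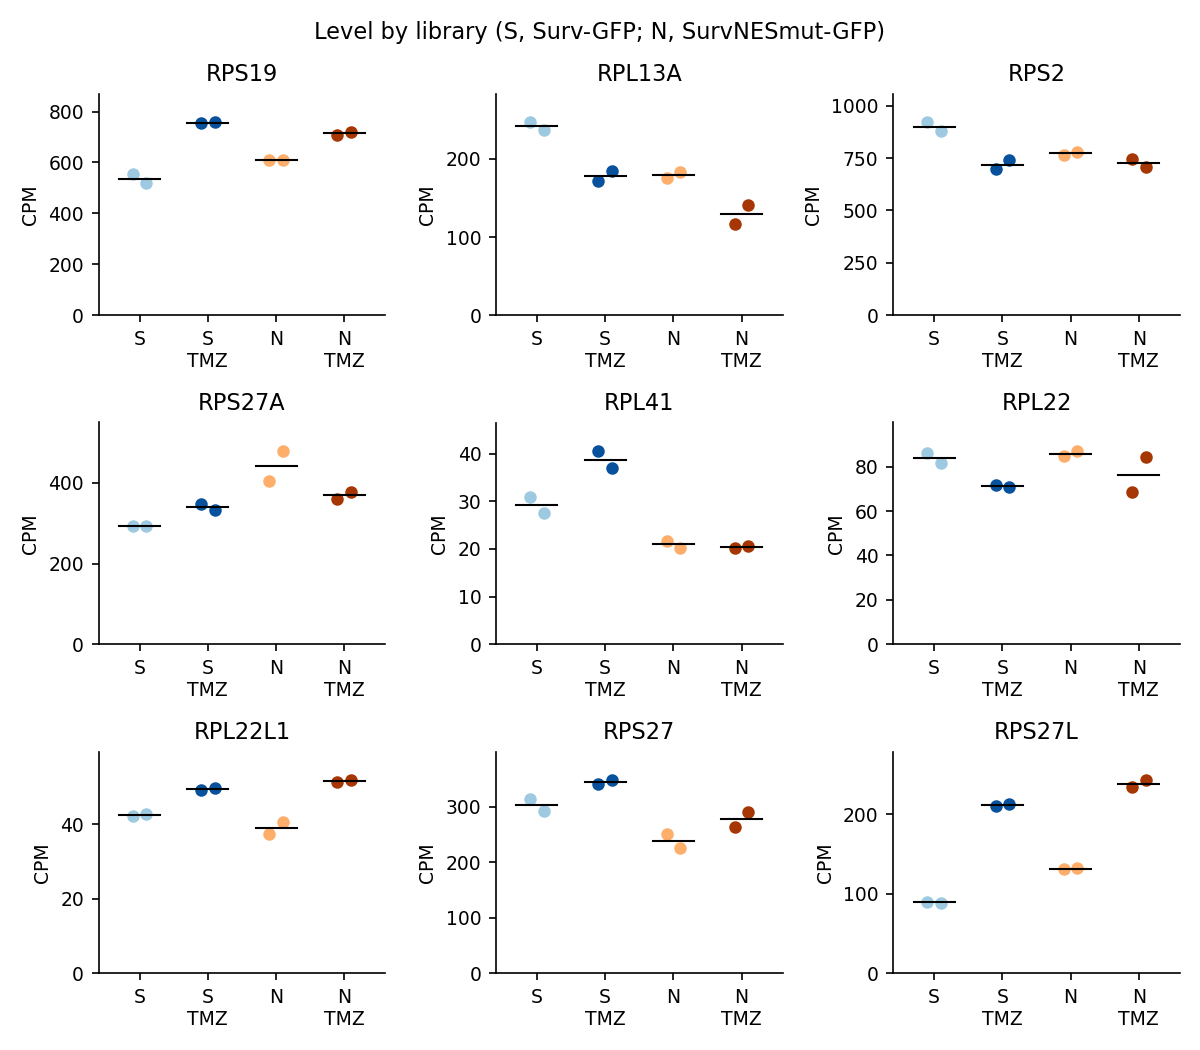
Level in CPM of 8 ribosomal protein genes and of RPS27L in each library (points) with the group mean (line), for Surv-GFP (S, blue) and SurvNESmut-GFP (N, orange), untreated or with TMZ. RPS19 and RPL22L1 are higher and RPL13A is lower with TMZ in both clones, and RPS27A rises in Surv-GFP and falls in SurvNESmut-GFP.

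Genes of the stalk and of the 5S particle were examined by their roles. RPLP0, RPLP1 and RPLP2 form the stalk that recruits translation factors. With TMZ only RPLP1 was called, in Surv-GFP (0.13 ± 0.05, adjusted p = 0.024), from 671 and 660 CPM to 708 and 746 CPM, and this call was lost under 7 alternatives. RPL11 rose in Surv-GFP from 711 and 696 CPM to 776 and 803 CPM (0.17 ± 0.04, adjusted p = 0.004), a call lost without the treated library b, and was at 686 and 708 CPM untreated and at 703 and 721 CPM with TMZ in SurvNESmut-GFP (0.03 ± 0.04, adjusted p = 0.63). The difference between these effects did not pass the test (-0.14 ± 0.06, adjusted p = 0.1). RPL5, its partner, had 0.09 ± 0.04 in Surv-GFP (adjusted p = 0.1) and -0.03 ± 0.04 in SurvNESmut-GFP (adjusted p = 0.66). MDM2, the p53 ligase that both can bind and itself a p53 target, rose by 1.88 ± 0.07 in Surv-GFP and by 0.92 ± 0.07 in SurvNESmut-GFP (adjusted p = 1.1e-12 and 2e-08). RPF2 and RRS1, which deliver the 5S particle to the pre-60S subunit, rose in both clones, as did 5 and 4 of the 7 tested genes of this list, with 0 lower. The rise of RPF2 and RRS1 was 0.79 and 0.32 in Surv-GFP and 0.50 and 0.30 in SurvNESmut-GFP. The MDM2 and RPF2 effects were smaller in SurvNESmut-GFP, by -0.96 ± 0.09 and -0.29 ± 0.09 (adjusted p = 9e-07 and 0.014). Untreated, both genes were already higher in SurvNESmut-GFP than in Surv-GFP, by 0.75 ± 0.07 and 0.56 ± 0.06 (adjusted p = 7.1e-08 and 8e-07). RPF2 was also higher there with TMZ (0.27 ± 0.06, adjusted p = 0.00056).

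RPL22 and its paralogue moved in opposite directions with TMZ in Surv-GFP. RPL22, which binds RNA of several genes including that of its paralogue, fell in Surv-GFP from 86.0 and 81.6 CPM to 71.5 and 70.9 CPM (-0.23 ± 0.07, adjusted p = 0.012). RPL22L1 rose there from 42.3 and 42.6 CPM to 49.2 and 49.7 CPM (0.22 ± 0.06, adjusted p = 0.006), a call lost with DESeq2 and without the treated library b. In SurvNESmut-GFP RPL22 was at 84.7 and 86.9 CPM untreated and at 68.4 and 84.3 CPM with TMZ (-0.17 ± 0.07, adjusted p = 0.081), and without the treated library b it was called lower at -0.32. The counts of RPL22L1 amounted to 49.2% and 52.2% of those of RPL22 in untreated Surv-GFP and to 68.8% and 70.1% with TMZ. In SurvNESmut-GFP the ratio was 44.0% and 46.8% untreated and 75.1% and 61.4% with TMZ. Treated and untreated libraries did not overlap in either clone.

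RPL26L1 and RPL26 differed between clones in opposite directions, although both rose by 0.25 with TMZ in Surv-GFP. The RPL26L1 call of that rise was lost with DESeq2 and without the untreated library b (0.23) or the treated library b (0.15). RPL26, which also binds p53 mRNA, was at 186 and 178 CPM in untreated Surv-GFP and at 283 and 316 CPM in untreated SurvNESmut-GFP (0.72 ± 0.06, adjusted p = 8.2e-09). RPL26L1 was at 31.8 and 31.0 CPM against 20.3 and 21.1 CPM (-0.60 ± 0.08, adjusted p = 4.2e-06). Its counts were 16.3% to 18.03% of those of RPL26 in the 4 Surv-GFP libraries and 6.66% to 7.21% in the 4 SurvNESmut-GFP libraries. RPL7L1, which acts in assembly of the large subunit, stayed between 7.18% and 9.03% of RPL7 in all 8 libraries. With TMZ it was lower in SurvNESmut-GFP than in Surv-GFP (-0.27 ± 0.07, adjusted p = 0.0027).

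RPS27L, left out of the members by the rule, is a paralogue of RPS27 and a known p53 target. It was at 89.6 and 88.2 CPM in untreated Surv-GFP and at 211 and 213 CPM with TMZ (1.25 ± 0.05, adjusted p = 2.1e-12). In SurvNESmut-GFP it rose from 131 and 132 CPM to 234 and 242 CPM (0.86 ± 0.05, adjusted p = 8.9e-10). RPS27 rose far less, by 0.18 ± 0.06 in Surv-GFP and 0.21 ± 0.06 in SurvNESmut-GFP (adjusted p = 0.016 and 0.011), and each call was lost without the untreated or the treated library b of its clone. RPS27L counts thereby went from 28.6% and 30.1% to 61.8% and 61.1% of those of RPS27 in Surv-GFP, and from 52.1% and 58.3% to 88.7% and 83.2% in SurvNESmut-GFP. These changes were larger than the change of any of the 78 members.

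Other genes of ribosome production were counted for comparison, from lists written with earlier results of these data known. Of all genes tested 30.1% were higher and 28.9% lower with TMZ in Surv-GFP, and 18.6% and 19.1% in SurvNESmut-GFP. Of 81 tested factors of rRNA processing and ribosome assembly, 51 were higher and 4 lower with TMZ in Surv-GFP, with a median of 0.26, and 26 were higher and 5 lower in SurvNESmut-GFP, with a median of 0.11. RRP12, a factor of pre-ribosome export, rose by 1.54 ± 0.07 in Surv-GFP and by 0.51 ± 0.07 in SurvNESmut-GFP, and DDX21, a nucleolar helicase, by 0.90 ± 0.06 in Surv-GFP. NPM1 had the smallest adjusted p of this list in SurvNESmut-GFP and fell there with TMZ (-0.39 ± 0.05, adjusted p = 8.4e-06). By the test of the difference, the TMZ effect was lower in SurvNESmut-GFP for 33 of the 81 factors and higher for 1. Over all genes tested these shares were 20.2% and 16.6%. Without TMZ, 39 of the 81 were already higher in SurvNESmut-GFP and 18 lower, and with TMZ 17 were higher and 33 lower. For these clone differences the shares of all genes were 34.7% and 29.4% untreated, and 34.5% and 34.7% with TMZ. Of 17 tested genes of RNA polymerase I and its factors 11 were higher and 3 lower in Surv-GFP, and 7 higher and 0 lower in SurvNESmut-GFP. RRN3, the initiation factor, rose by 0.69 ± 0.06 in Surv-GFP and UBTF, the upstream binding factor, fell by 0.47 ± 0.05. Of 78 tested mitochondrial ribosomal protein genes, 35 were higher and 8 lower in Surv-GFP, with a median of 0.13, and 14 higher and 7 lower in SurvNESmut-GFP, with a median of 0.00.

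Of 20 tested other mRNAs of the 5′ TOP class 5 were higher and 6 lower in Surv-GFP, near the 30.1% and 28.9% of all genes, with a median of 0.04. In SurvNESmut-GFP 1 was higher and 6 lower, against 18.6% and 19.1% of all genes. The median there was -0.01, as among the members, of which 12.8% were higher and 11.5% lower. EIF3E and BTF3 fell in both clones, by 0.51 ± 0.05 and 0.46 ± 0.05 in Surv-GFP and by 0.29 ± 0.05 and 0.27 ± 0.05 in SurvNESmut-GFP. In Surv-GFP 22 of the 54 tested members with a pyrimidine run of 8 or more bases were higher and 3 lower, against 5 and 1 of the 10 without such a run. Of 18 regulators of ribosomal protein synthesis 10 were higher and 3 lower in Surv-GFP, and 9 and 5 in SurvNESmut-GFP. SESN2, a stress-induced inhibitor of mTORC1, rose by 2.82 ± 0.06 in Surv-GFP and by 2.03 ± 0.06 in SurvNESmut-GFP. EIF4EBP1, a repressor of cap-dependent translation, rose by 0.996 ± 0.054 and 0.744 ± 0.054. MYCN of the same list fell in both clones, with -3.28 ± 0.14 in Surv-GFP and -3.91 ± 0.37 in SurvNESmut-GFP. Untreated, MYCN was also lower in SurvNESmut-GFP than in Surv-GFP (-3.34 ± 0.14). Of 4 tested ribosomal proteins outside the naming rule 3 were higher in Surv-GFP and 1 lower in SurvNESmut-GFP. They included FAU, which encodes the small subunit protein eS30 as a fusion and rose by 0.19 ± 0.05 in Surv-GFP (adjusted p = 0.0031), and RPL36AL, which had 0.12 ± 0.05 in Surv-GFP and fell by 0.20 ± 0.05 in SurvNESmut-GFP.

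**Figure D4:**
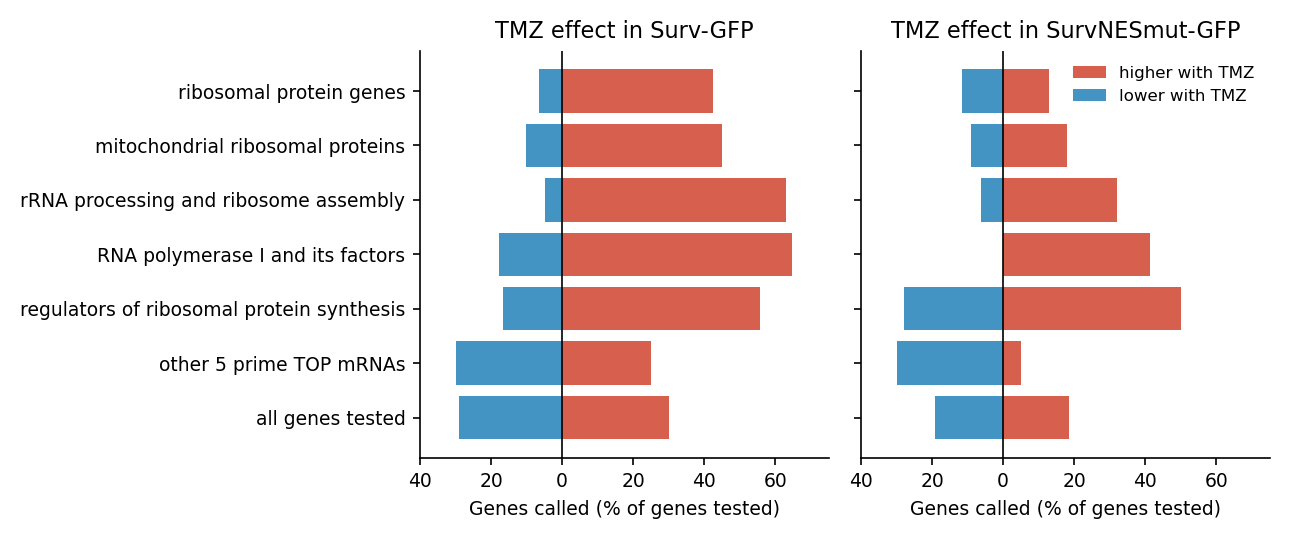
Genes called at an adjusted p of 0.05 as a percentage of the genes tested, higher (red, to the right) or lower (blue, to the left) with TMZ, for the ribosomal protein genes, 5 lists of related genes and all genes tested. In Surv-GFP 42.3% of the ribosomal protein genes were higher and 6.41% lower, and in SurvNESmut-GFP 12.8% and 11.5%.

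More members were called between the clones than with TMZ in either clone. Without TMZ 19 of 78 members were higher in SurvNESmut-GFP (24.4%) and 34 lower (43.6%), against 34.7% and 29.4% of all genes. With TMZ 14 were higher (17.9%) and 45 lower (57.7%), against 34.5% and 34.7% of all genes. The medians of the members were -0.10 untreated and -0.15 with TMZ, and those of all genes 0.03 and 0.00. Small subunit genes were lower in 18 of 30 cases untreated and 21 of 30 with TMZ, and large subunit genes in 16 and 24 of 48. The comparisons share no library but set the same clones against each other. Of the members 14 were higher in both and 31 lower in both, with none called in opposite directions. The shares of all genes called in both comparisons, in the same or in opposite directions, were not counted. Across the 78 members the differences correlated with r = 0.87, against 0.88 over all genes.

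RPL38, a large subunit protein known for its part in translating Hox mRNAs, had the largest untreated difference, at 302 and 301 CPM in Surv-GFP and 177 and 170 CPM in SurvNESmut-GFP (-0.80 ± 0.05, adjusted p = 7.1e-10). With TMZ it was at 315 and 338 CPM against 193 and 194 CPM (-0.76 ± 0.05, adjusted p = 1.1e-09). RPL35A was lower by a smaller margin, at 317 and 307 CPM against 208 and 210 CPM untreated (-0.58 ± 0.05, adjusted p = 2.6e-08). RPS26 was at 86.3 and 83.4 CPM against 56.2 and 58.4 CPM (-0.57 ± 0.06, adjusted p = 1.6e-07). RPS13 was at 464 and 459 CPM against 291 and 306 CPM with TMZ (-0.63 ± 0.05, adjusted p = 7.6e-09).

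RPS21, of the small subunit, was higher in SurvNESmut-GFP, at 771 and 759 CPM against 526 and 511 CPM untreated (0.56 ± 0.04, adjusted p = 9.8e-09). RPSA, which is also known as the laminin receptor precursor, was at 673 and 669 CPM against 514 and 509 CPM with TMZ (0.39 ± 0.04, adjusted p = 8.3e-07). RPS27A was higher untreated (0.59 ± 0.06, adjusted p = 4.8e-07) and did not pass the test with TMZ (0.11 ± 0.06, adjusted p = 0.12). Stalk genes RPLP0 and RPLP1 were higher in SurvNESmut-GFP untreated, by 0.22 ± 0.04 and 0.19 ± 0.05, and RPLP2 had -0.01 ± 0.05. Among ribosomal proteins outside the naming rule GNB2L1, which encodes the small subunit scaffold RACK1, fell by 0.91 ± 0.04 on the log2 scale from Surv-GFP to SurvNESmut-GFP untreated and by 1.09 ± 0.04 with TMZ.

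Since the members are scattered over the genome, their clone difference was set beside that of their neighbours. For each member the median log2 fold change was taken over up to 10 tested genes on either side in RefSeq gene order. All RPL and RPS rows were left out. Fewer than 20 neighbours were available for RPL35A (11), RPL8 (17) and RPS7 (19). The neighbour median correlated with the member's own difference with r = 0.80 (Spearman's rho = 0.74) untreated and r = 0.74 (rho = 0.72) with TMZ, over 78 members. Among 13870 other genes, most of them less abundant, rho was 0.36 and 0.32. The TMZ effects of the members followed their neighbours less, with rho = 0.12 (Surv-GFP) and rho = 0.09 (SurvNESmut-GFP). These correlations describe genes measured in the same libraries, and neighbours of nearby members overlap.

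Of the 34 members lower in untreated SurvNESmut-GFP, 27 had a neighbour median below 0, and of the 19 higher members 18 had one above 0. RPL38 on chromosome 17 at -0.80 lay among neighbours with a median of -0.72, and RPL26L1 on chromosome 5 at -0.60 among neighbours at -0.73. RPL26, also on chromosome 17, was at 0.72 with neighbours at 0.45, and RPS21 on chromosome 20 at 0.56 with neighbours at 0.52. RPL10 and RPL39 on chromosome X stood apart from theirs. RPL10, a protein of the site where both subunits join, was at 621 and 603 CPM against 463 and 435 CPM untreated (-0.45 ± 0.05, adjusted p = 3.8e-07) with neighbours at 0.13. RPL39 was at 22.9 and 21.3 CPM against 29.8 and 31.1 CPM (0.46 ± 0.08, adjusted p = 0.00013) with neighbours at -0.03. Copy number was not measured, and its part in these differences was not tested.

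**Figure D5:**
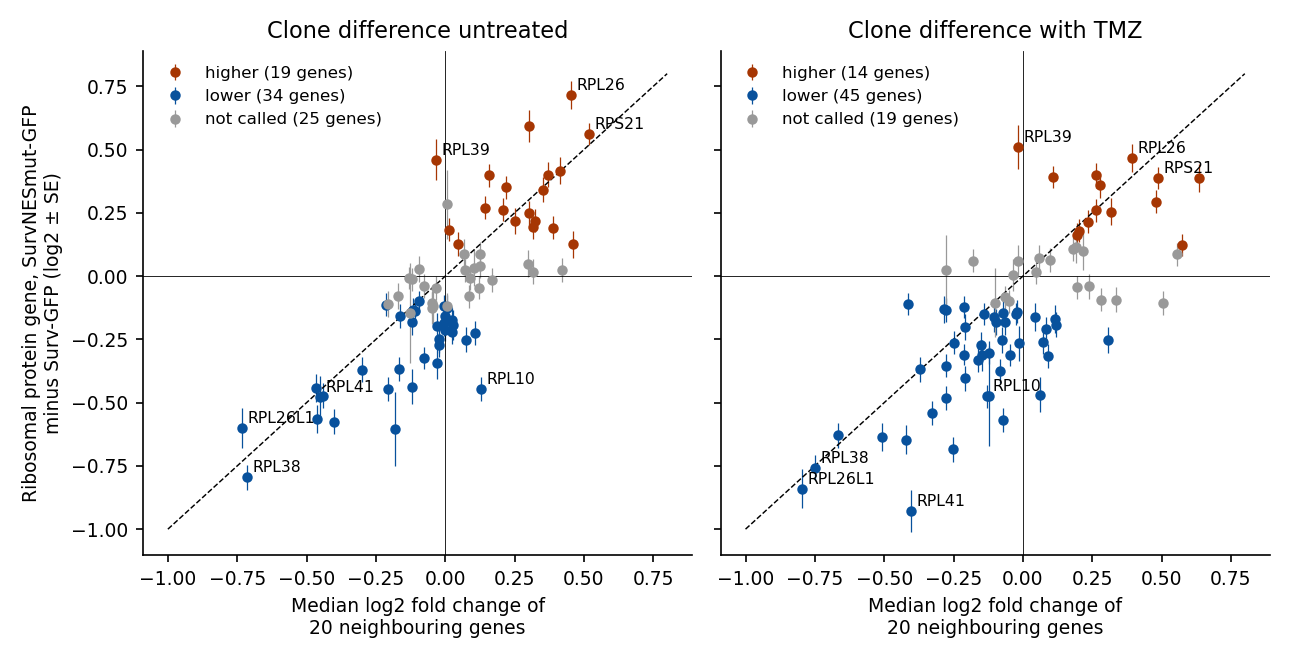
Log2 difference between clones (SurvNESmut-GFP minus Surv-GFP, with SE bars) of each of the 78 ribosomal protein genes, untreated (left) and with TMZ (right). The horizontal axis gives the median difference of up to 20 neighbouring genes, and the dashed line marks equality. Most points follow the line, from RPL38 and RPL26L1 at the lower left to RPL26 and RPS21 at the upper right, and RPL39 and RPL10 lie off it in the untreated cells.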

How the data were processed

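RNA of 8 libraries was sequenced by the authors. Their deposited file holds raw counts, as whole reads per gene symbol, without normalization. The submitters' processing notes name STAR 2.5.0b, Cufflinks 2.2.1 and edgeR. Genome build, annotation, counting program and strand setting: not given in the sources used here. Rows without a gene (11.2% to 14.3% of reads without a feature, 1.19% to 1.28% ambiguous) were left out. The 14.3% belonged to library a of SurvNESmut-GFP with TMZ, and the next highest share was 12.8% in untreated library b of Surv-GFP. The deposited comparison tables of the authors hold, per gene, F statistics with p and FDR, mean log2 CPM and log2 fold changes, and were not used. Counts were fitted in R 4.3.3 with edgeR 4.0.16 (TMM, filter on low counts by group, 4 group means, quasi-likelihood F test of the older kind), with Benjamini-Hochberg adjustment over 14201 genes. SE is the log2 fold change divided by the square root of F. The fits were tested on simulated data. Alternatives were DESeq2's size factors, library size alone, TMM without the members, no filter, DESeq2 1.42.0, the quasi-likelihood method of edgeR 4, a replicate block, a fit to the compared libraries alone, and leaving out each library. Column names were matched to libraries through the sample labels. A call means an adjusted p under 0.05.

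Named genes are BIRC5, the stalk genes, RPSA, RPL5, RPL11, paralogues with their parents, in each comparison the 3 members per direction with the smallest p among those called without overlap between libraries, the 3 highest and lowest per coding length, and at most 3 genes per list by p in the comparison described. The lists hold genes of the stalk, the 5S particle and MDM2, ribosomal proteins outside the rule, other 5′ TOP mRNAs, RNA polymerase I, ribosome assembly, regulators, mitochondrial ribosomal proteins, pseudogenes and cell markers. Members and lists were chosen with earlier results of these data known. Symbols were matched to GENCODE 29 for coding length and snoRNA genes, found for all 83 members, and to RefSeq for gene order and start sites, the latter found for 66 members. Each replicate letter was compared across groups, and deviations of a from b correlated between -0.067 and 0.083, so the letters were not used as pairs. The comparisons by neighbouring genes, snoRNA genes and pyrimidine runs were added after the values were seen. An item among the members is left out of the text and not reported here.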

Additional observations from a re-analysis of the deposited data

Results flagged for a closer look

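The TMZ effect differed between the clones in 8 members named for this comparison or for all comparisons. These were called by the test of the difference itself (SurvNESmut-GFP minus Surv-GFP, log2). Of members named above for other reasons, RPL41 (-0.45), RPS13 (-0.26) and RPL36 (-0.22) were also called by it. RPS27A had -0.48, RPL9 -0.30 and RPS19 -0.27, and these 3 were called under every alternative tried. RPL26 had -0.25, RPL7 -0.19 and RPS21 -0.18, and each of these lost the call in at least 1 alternative scaling and when single libraries were left out. RPS2 had 0.24 and RPL36A 0.63, and both lost the call when single libraries were left out, RPL36A also with DESeq2 (adjusted p = 0.115). RPL36A had 82 to 128 counts per library. Samples far from their group could not be looked for with 2 libraries per group.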

How the results depend on the processing

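Of 2086 recomputed values of named genes, 1965 kept their direction and their side of the threshold, 92 lost a call, 29 gained one and 0 called values changed sign. With DESeq2 the members higher with TMZ in Surv-GFP fell from 33 to 20 and those higher in SurvNESmut-GFP from 10 to 5, and the difference had 9 lower and 1 higher. With library size alone, 4 members were lower with TMZ in SurvNESmut-GFP, the difference had 6 lower and 4 higher, and the median untreated clone difference was -0.16. With only the libraries compared, 6 members were higher and 5 lower with TMZ in SurvNESmut-GFP. The share of counts, taken against the TMM-scaled library size, changed with TMZ in SurvNESmut-GFP by -0.0282 points in place of 0.0549, and the untreated clone difference was -0.0937 points. A replicate block left 11 members on the lower side of the difference in place of 18, and the counts of the other comparisons stayed within 1.5 times. The letters are not known to pair the libraries. Leaving out 1 library at a time gave 9 to 36 higher and 3 to 6 lower members with TMZ in Surv-GFP (median 0.042 to 0.122), 3 to 10 and 1 to 15 in SurvNESmut-GFP, 1 to 3 and 6 to 22 for the difference, and 12 to 14 and 34 to 50 for the clones with TMZ (median -0.20 to -0.13). For untreated clones they gave 17 to 19 and 23 to 41. In such fits the lone library is assumed to vary like the other groups. The cause of these shifts was not tested. With 2 libraries per group and small effects, members near the threshold cannot be resolved.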
